A study of Mus musculus with 6 samples.

Results

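Diacylglycerol kinases and regulators of Ras set how strongly a T-cell receptor signal is passed on to the ERK kinases, and 10 genes of this group were followed in naive CD8 T cells sorted for high or low Nur77-GFP. The 10 genes were chosen by symbol from the expression table, and all 10 were found among its 11162 genes. They comprise 3 Ras activators (Rasgrp1, Rasgrp2 and Sos1) and 7 brakes, which are the diacylglycerol kinases Dgka and Dgkz and the Ras GTPase-activating proteins (Ras GAPs) Rasa1, Rasa2, Rasa3, Rasal3 and Nf1. The cells came from mouse spleen and were sorted as CD8+, CD44lo, CD62Lhi and Qa2hi cells carrying OT-I, a transgenic T-cell receptor, so all cells of both groups share that receptor and the transgene Tg(Nr4a1-EGFP)GY139Gsat. In this transgene Nr4a1 regulatory sequence drives green fluorescent protein, so the sort reads reporter protein and not Nr4a1 transcript. There were 3 GFP-hi and 3 GFP-lo samples, each with its own library. The ages of the mice are not given, nor whether the 3 samples of a group came from separate mice, so p-values measure the spread between these samples, which may be technical.

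Engagement of the T-cell receptor activates phospholipase C gamma, which cuts a membrane lipid and releases diacylglycerol. Diacylglycerol brings RasGRP1 to the membrane, where it loads Ras with GTP, and Sos1, recruited by the adaptor Grb2, does the same. Ras bound to GTP starts the Raf, MEK and ERK cascade. Diacylglycerol kinases end the lipid signal by converting diacylglycerol to phosphatidic acid, and Ras GAPs end the Ras signal by speeding up the hydrolysis of GTP. In T cells, loss of Dgka or Dgkz strengthens Ras and ERK signalling, and high activity of these kinases is a known feature of T-cell anergy.

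The libraries held 26170000 to 35940000 reads, a depth recovered from the spacing of low values, so a transcript of 1 kilobase at 1 RPKM (reads counted per kilobase of a gene, corrected for library size) rested on 26.2 to 35.9 reads. All 8 markers of naive CD8 T cells on the list were present, led by Cd8b1 at 785 to 839 RPKM, and none of them passed the test between the groups (limma, adjusted p from 0.33 to 0.92). Of 23 markers of CD4 T, B, myeloid, NK and erythroid cells, 7 were listed. Cd40lg reached 22.7 RPKM in a GFP-hi and 46.8 RPKM in a GFP-lo library, Cd79b reached 14.1 and 11.1 RPKM, and the others stayed at or below 8.14 RPKM. Cd40lg, the 1 listed gene of 4 CD4 T cell markers, was lower in the GFP-hi libraries, at -1.13 on the log2 scale (limma, adjusted p = 0.011), and its part in the results below was not tested. The heat-shock genes Hspa1a and Hspa1b were high in replicate 2 of both groups (1100 to 2133 RPKM) and at most 503 RPKM in the other 4 libraries. The log2 fold change of Nr4a1, the gene behind the reporter, was 0.02 (limma, adjusted p = 0.98), so its transcript gave no check of the sort. The reporter's own transcript, listed as GFP, had 214, 262 and 215 RPKM in GFP-hi and 216, 215 and 191 RPKM in GFP-lo libraries, which overlapped (0.15 on the log2 scale, limma adjusted p = 0.42).

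Transcript levels of the 10 genes spanned a wide range in both groups. On the RPKM scale, Dgka came first with a mean of 507 RPKM over the 6 libraries, the 15th highest of all listed genes. RPKM is per length, but the gene lengths behind it are not given, so comparisons between genes are approximate. Rasal3 (155 RPKM), Rasa3 (100.03 RPKM), Rasgrp1 (78.1 RPKM) and Dgkz (48.8 RPKM) followed. Each of these levels lay outside the range of its neighbours in every library. Rasgrp2 (20.05 RPKM) came next, then Rasa1 (12.5 RPKM) and Rasa2 (11.5 RPKM), whose ranges overlapped, and Sos1 (5.94 RPKM). Nf1 was last with 0.31 RPKM, a level that 93.7% of listed genes exceeded.

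**Figure D1:**
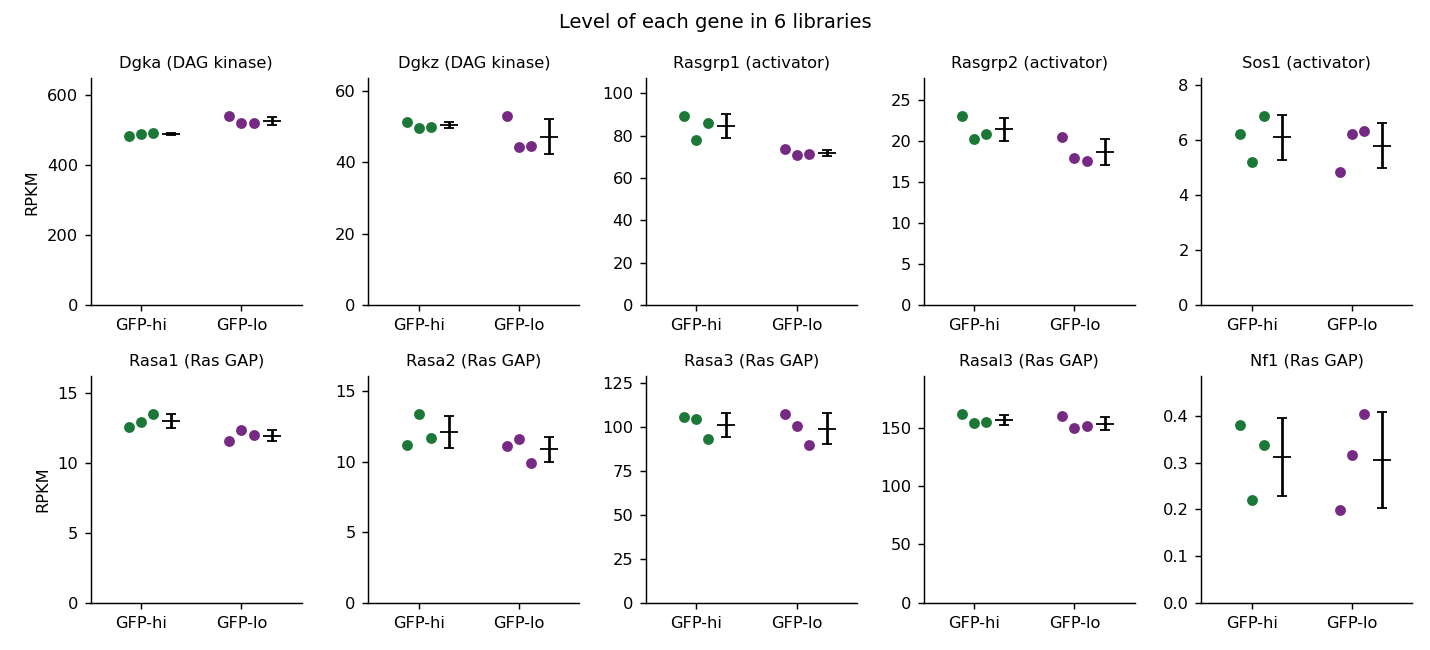
RPKM of each of the 10 genes in the 3 GFP-hi (green) and 3 GFP-lo (purple) libraries, each panel with its own axis from 0; the bar beside the points is the mean with the SD. GFP-hi and GFP-lo points do not overlap for Dgka, Rasgrp1 and Rasa1, and overlap for the other 7 genes.

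None of the 9 genes that could be tested differed between GFP-hi and GFP-lo cells at an adjusted p under 0.05. Nf1, with a mean below 1 RPKM, was left out of the test. Fold changes compare GFP-hi with GFP-lo as a difference of log2(RPKM + 1), from a limma fit over the 9351 genes with a mean of at least 1 RPKM, with Benjamini-Hochberg adjustment over all of them. In that fit 3.95% of all genes passed (2.46% higher and 1.49% lower in GFP-hi), so 0 of 9 is near the background and is no result about these genes. At an unadjusted p under 0.05 there were 2 of the 9, Rasgrp1 and Rasgrp2, both higher in GFP-hi (22.2%, against 12.9% of all genes in that direction). None of the 9 was lower at that level, against 7.3% of all genes, and 20.2% of all genes passed it in either direction. Fold changes lay above 0 for 8 of the 9, against 55.5% of all genes tested. In bulk RNA, fewer cells of a type and less RNA per cell cannot be told apart.

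**Figure D2:**
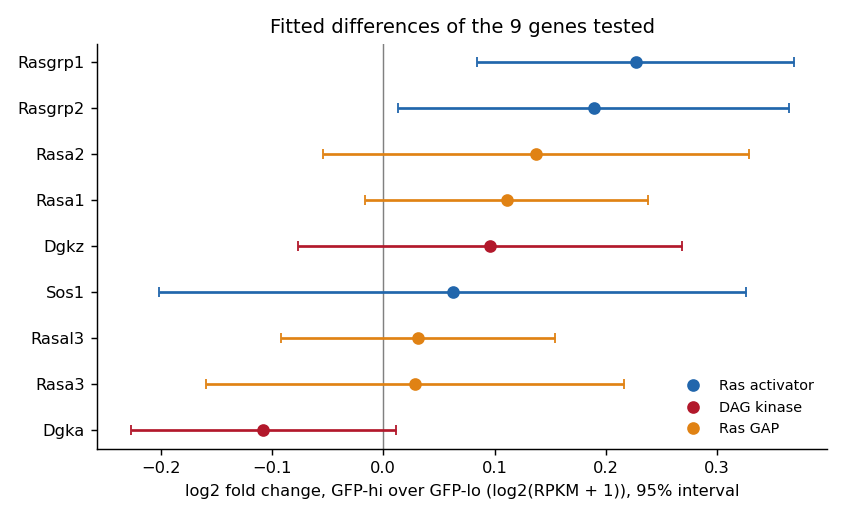
Fitted log2 fold change, GFP-hi over GFP-lo, of the 9 genes tested, with the 95% interval from limma. Colours mark activators, diacylglycerol kinases and Ras GAPs. The intervals of Rasgrp1 (0.08 to 0.37) and Rasgrp2 (0.01 to 0.36) lie above 0 before adjustment, and the other 7 include 0.

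Among the activators, Rasgrp1 had the largest difference of all 9 genes tested. Rasgrp1 (Entrez 19419, chromosome 2, 117279993 to 117343001, minus strand) encodes the diacylglycerol-binding exchange factor that is the main Ras activator of T cells. Its level was 89.1, 78.1 and 85.9 RPKM in the 3 GFP-hi libraries and 73.6, 70.8 and 71.2 RPKM in the 3 GFP-lo libraries. Every GFP-hi library was thus above every GFP-lo library, and GFP-hi replicate 2, one of the libraries with high heat-shock genes, was the closest to GFP-lo. GFP-hi averaged 84.4 ± 5.69 and GFP-lo 71.9 ± 1.52 RPKM (SD, n = 3 each), 17.4% apart. The fitted log2 fold change was 0.23 (standard error 0.062, 95% interval 0.08 to 0.37, limma unadjusted p = 0.0063, adjusted p = 0.090). The threshold was passed without GFP-hi replicate 2 (0.28, adjusted p = 0.033) and with array quality weights (0.27, adjusted p = 0.0053). Those weights called 13.7% of all genes, against 3.95% in the main fit. The 17 alternatives gave adjusted p values between 0.0053 and 0.26. In the 4 libraries with lower heat-shock genes the log2 fold change was 0.27 (limma, adjusted p = 0.11).

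Rasgrp2 (Entrez 19395, chromosome 19, 6399340 to 6415216, plus strand) encodes a calcium- and diacylglycerol-regulated exchange factor that acts mainly on Rap1, a relative of Ras that controls integrin adhesion. It had 23.0, 20.3 and 20.9 RPKM in GFP-hi and 20.5, 18.0 and 17.5 RPKM in GFP-lo. The groups overlapped through 1 pair, since GFP-lo replicate 1 lay just above GFP-hi replicate 2. Its log2 fold change was 0.19 (standard error 0.076, 95% interval 0.01 to 0.36, limma unadjusted p = 0.038, adjusted p = 0.22), and it passed the threshold only with array quality weights among the 17 alternatives (0.22, adjusted p = 0.035).

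Sos1 (Entrez 20662, chromosome 17, 80393751 to 80480453, minus strand) encodes the exchange factor that Grb2 recruits. It had 6.21, 5.21 and 6.86 RPKM in GFP-hi and 4.85, 6.21 and 6.32 RPKM in GFP-lo, which overlapped. The log2 fold change of Sos1 was 0.06 with a 95% interval from -0.20 to 0.33 (limma, adjusted p = 0.82). Leaving out GFP-hi replicate 3 turned it to -0.02, and leaving out GFP-lo replicate 1 turned it to -0.04. The wide interval goes with its spread: on the log2(RPKM + 1) scale the SD within groups was 0.176, above the SD of 90% of tested genes.

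Dgka was the only one of the 9 tested genes with a fitted value below 0. Dgka (Entrez 13139, chromosome 10, 128720134 to 128744855, minus strand) encodes the alpha diacylglycerol kinase, a transcript abundant in resting T cells. Its level was 483, 488 and 491 RPKM in GFP-hi and 538, 519 and 519 RPKM in GFP-lo. All GFP-hi libraries were below all GFP-lo libraries, and within each group the values lay close together. GFP-hi averaged 488 ± 4.07 and GFP-lo 525 ± 11.1 RPKM (SD, n = 3 each). The fitted log2 fold change was -0.11 (standard error 0.052, 95% interval -0.23 to 0.01, limma unadjusted p = 0.071, adjusted p = 0.30). The SD of Dgka within groups was 0.023 on the log2 scale, in the lowest 1.28% of tested genes, and limma's standard error draws that SD toward the spread of other genes. An exact permutation test of 3 libraries against 3 cannot give a two-sided p below 0.1, so it could not have passed either. With quantile normalization the log2 fold change was -0.03 (limma, adjusted p = 0.90), and the 17 alternatives gave adjusted p values between 0.17 and 0.90.

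Dgkz (Entrez 104418, chromosome 2, 91932824 to 91975864, minus strand) encodes the zeta diacylglycerol kinase, which limits Ras activation downstream of the T-cell receptor. It had 51.3, 49.7 and 49.98 RPKM in GFP-hi and 52.9, 44.2 and 44.5 RPKM in GFP-lo. GFP-lo replicate 1 was the highest of the 6 libraries and the other 2 GFP-lo libraries were the lowest. The log2 fold change was 0.10 (95% interval -0.08 to 0.27, limma adjusted p = 0.53), and it was 0.18 without GFP-lo replicate 1 (adjusted p = 0.13). Across the 8 listed diacylglycerol kinases, Dgka made up 80.8 ± 0.559% of the summed RPKM in GFP-hi and 82.0 ± 0.28% in GFP-lo (SD, n = 3 each), and Dgkz made up 8.35 ± 0.184% and 7.36 ± 0.589%. Dgkd, encoding the delta kinase, was the next by level, with 57.5 ± 3.002 and 59.9 ± 1.75 RPKM (log2 fold change -0.06, limma adjusted p = 0.62). Its level thus exceeded that of Dgkz in all 6 libraries.

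Of the Ras GAPs, Rasal3 and Rasa3 were the most abundant by far. Rasal3 (Entrez 320484, chromosome 17, 32390659 to 32403583, minus strand), a Ras GAP of haematopoietic cells, had 162, 154 and 155 RPKM in GFP-hi and 160, 149 and 151 RPKM in GFP-lo. Its log2 fold change was 0.03 with a 95% interval from -0.09 to 0.15 (limma, adjusted p = 0.81). Rasa3 (Entrez 19414, chromosome 8, 13566948 to 13677603, minus strand), which acts on both Ras and Rap1, had 105, 104 and 93.0 RPKM in GFP-hi and 107, 100.4 and 89.5 RPKM in GFP-lo. The log2 fold change of Rasa3 was 0.03 with a 95% interval from -0.16 to 0.22 (limma, adjusted p = 0.89). Both genes overlapped between groups. Rasal3 turned to -0.01 with quantile normalization, and Rasa3 to -0.01 with array quality weights, -0.0037 when GFP-hi replicate 1 was left out and -0.04 when GFP-lo replicate 3 was. Across the 8 listed Ras GAP genes, Rasal3 held 54.0 ± 1.33% of the summed RPKM in GFP-hi and 54.5 ± 1.54% in GFP-lo, and Rasa3 held 34.7 ± 1.35% and 35.1 ± 1.56% (SD, n = 3 each).

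Rasa1 (Entrez 218397, chromosome 13, 85214780 to 85289130, minus strand) encodes p120 RasGAP. It had 12.5, 12.9 and 13.5 RPKM in GFP-hi and 11.5, 12.3 and 11.98 RPKM in GFP-lo. The GFP-hi libraries all lay above the GFP-lo libraries, by a narrow margin. The log2 fold change was 0.11 (95% interval -0.02 to 0.24, limma adjusted p = 0.32). Rasa2 (Entrez 114713, chromosome 9, 96539300 to 96631617, minus strand), a Ras GAP known from screens for genes that limit T-cell responses, had 11.2, 13.4 and 11.7 RPKM in GFP-hi and 11.1, 11.6 and 9.91 RPKM in GFP-lo. The groups overlapped, GFP-hi replicate 2 was the highest, and the log2 fold change of 0.14 (95% interval -0.05 to 0.33, limma adjusted p = 0.41) was 0.07 without that library.

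Nf1 (Entrez 18015, chromosome 11, 79339693 to 79581612, plus strand) encodes neurofibromin, the Ras GAP lost in neurofibromatosis. It had 0.381, 0.22 and 0.337 RPKM in GFP-hi and 0.199, 0.316 and 0.404 RPKM in GFP-lo, about 7.15 to 10.8 reads per kilobase. The groups overlapped and the difference of the means was 0.01 on the log2(RPKM + 1) scale. Nasal receptor genes, which these cells are not known to use, had a median over 41 listed genes of 0.292, 0.037 and 0.419 RPKM in GFP-hi and 0.038, 0.263 and 0.583 RPKM in GFP-lo. Nf1 was lowest in the same libraries in which those genes were lowest, and was above their median in 4 of 6 libraries. Their part in the Nf1 value was not tested.

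Groups did not overlap for 2 of the 9 tested genes in the higher direction, Rasgrp1 and Rasa1 (22.2%, against 17.1% of all genes tested). They did not overlap for 1 gene in the lower direction, Dgka (11.1%, against 9.84%). In either direction that is 3 of 9, against 26.9%, so these shares are near the background. The RefSeq windows from 250 bases before to 50 bases after an annotated start (build GRCm38.p6) are printed for these 3 genes, to show how the start regions of the genes with separate groups are built. All 10 genes matched, with 16 windows. Each line runs 5′ to 3′ on the gene's own strand, and capitals mark a match to a searched motif. Of the 4 windows of Dgka, the 2 most upstream are shown; these data do not tell which start is used.
Rasgrp1 (chr2:117342828-117343127, minus strand): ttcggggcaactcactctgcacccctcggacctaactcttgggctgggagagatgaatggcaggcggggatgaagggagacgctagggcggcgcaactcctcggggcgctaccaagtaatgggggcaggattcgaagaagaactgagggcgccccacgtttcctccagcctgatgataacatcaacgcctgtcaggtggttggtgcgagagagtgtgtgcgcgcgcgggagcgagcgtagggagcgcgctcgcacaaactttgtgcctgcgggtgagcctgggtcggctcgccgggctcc
Dgka (chr10:128745035-128745334, minus strand): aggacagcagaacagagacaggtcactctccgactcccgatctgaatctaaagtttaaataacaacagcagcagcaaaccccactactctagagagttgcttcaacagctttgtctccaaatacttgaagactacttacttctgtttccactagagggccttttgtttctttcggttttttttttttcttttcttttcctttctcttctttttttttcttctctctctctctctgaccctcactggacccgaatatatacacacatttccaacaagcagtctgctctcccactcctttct
Dgka (chr10:128744027-128744326, minus strand): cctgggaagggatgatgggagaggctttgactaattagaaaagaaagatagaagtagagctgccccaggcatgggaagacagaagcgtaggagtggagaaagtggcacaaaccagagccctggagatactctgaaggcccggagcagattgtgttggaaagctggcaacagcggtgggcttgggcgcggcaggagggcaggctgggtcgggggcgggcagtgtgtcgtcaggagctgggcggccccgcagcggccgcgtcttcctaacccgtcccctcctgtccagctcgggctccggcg
Rasa1 (chr13:85289437-85289736, minus strand): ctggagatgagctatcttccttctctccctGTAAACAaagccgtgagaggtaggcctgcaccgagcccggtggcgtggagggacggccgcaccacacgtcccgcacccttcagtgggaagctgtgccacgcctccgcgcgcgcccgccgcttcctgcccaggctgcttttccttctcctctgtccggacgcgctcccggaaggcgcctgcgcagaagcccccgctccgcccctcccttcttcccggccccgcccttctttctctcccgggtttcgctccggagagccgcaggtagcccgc
The first Dgka window is poor in G and C (41.3%) and holds long runs of T, whereas the second (62.3%), Rasgrp1 (63.7%) and Rasa1 (68.7%) are rich in them. Letters of 6 motifs were searched on both strands: the Nur77 element AAAGGTCA, the FoxO core TGTTTAC, the Egr site GCGTGGGCG, the AP-1 site TGACTCA, the cyclic AMP element TGACGTCA and the Ets site CCGGAAGT. No searched motif contains another. Among the 16 windows, the FoxO core was found in 1, that of Rasa1, where it stands on the opposite strand and begins 220 bases before the start, and the Ets site in 1, that of Nf1. The FoxO core is found in 3.65% and the Ets site in 3.89% of all 32851 windows of this length. The Nur77 element (1.51% of all windows), the Egr site (0.612%), the AP-1 site (5.2%) and the cyclic AMP element (1.79%) were found in none of the 16. A match is a description of letters, and a missing match says only that these letters are not in this window.

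Activators were then set against brakes within each library. The summed level of the 3 activators was 118, 104 and 114 RPKM in GFP-hi and 99.0, 94.9 and 95.1 RPKM in GFP-lo. The summed level of both diacylglycerol kinases was 535, 537 and 541 RPKM in GFP-hi and 591, 564 and 563 RPKM in GFP-lo. Neither sum overlapped between the groups, and both follow their most abundant gene, Rasgrp1 and Dgka. The 5 Ras GAPs summed to 291, 285 and 273 RPKM in GFP-hi and 290, 274 and 263 RPKM in GFP-lo, which overlapped. All brakes together stood at 7.36 ± 0.507 RPKM per RPKM of activators in GFP-hi and at 8.80 ± 0.106 in GFP-lo (SD, n = 3 each). The log2 ratio of activators to brakes by summed RPKM was 0.26 higher in GFP-hi.

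When each gene was given equal weight within its set, so that Nf1 counted as much as Dgka, the difference was smaller. The mean log2(RPKM + 1) of the activators minus that of the brakes was -0.58, -0.77 and -0.58 in GFP-hi and -0.80, -0.75 and -0.71 in GFP-lo, so that GFP-hi replicate 2 lay within the GFP-lo range. The group means were -0.64 ± 0.109 and -0.76 ± 0.0468 (SD, n = 3 each), a difference of 0.12 that is close to the spread within GFP-hi. It was 0.17 against the diacylglycerol kinases alone, 0.10 against the Ras GAPs alone and 0.10 with Rasgrp2 left out of the activators. The groups overlapped in each of these scores. Leaving out 1 library gave 0.08 to 0.18, the highest without GFP-hi replicate 2. No test was made of these scores, since the genes were chosen with results of these data known. A ratio chosen after the values were seen, the RPKM of Dgka per RPKM of Rasgrp1, was 5.42, 6.25 and 5.72 in GFP-hi and 7.31, 7.34 and 7.29 in GFP-lo.

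**Figure D3:**
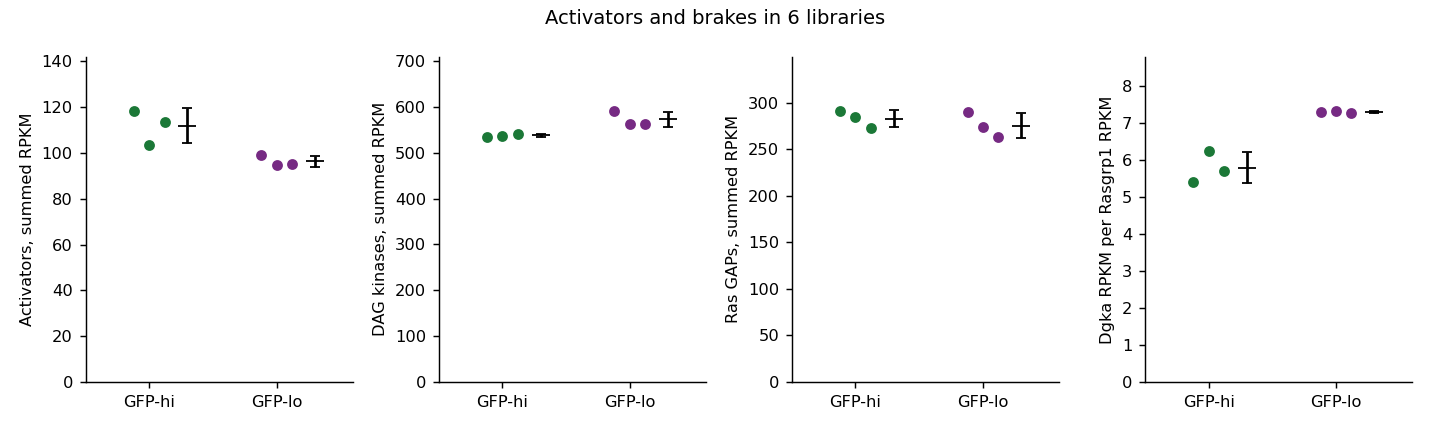
Summed RPKM of the 3 activators, of Dgka and Dgkz, and of the 5 Ras GAPs, and the RPKM of Dgka per RPKM of Rasgrp1, in each GFP-hi (green) and GFP-lo (purple) library, with mean and SD beside the points and axes from 0. The activator sum is higher, and the sum of Dgka and Dgkz lower, in every GFP-hi library than in any GFP-lo library. The activator sum follows Rasgrp1 and the kinase sum follows Dgka, while the other genes of both sums overlap between the groups. The Ras GAP sums overlap. The ratio of Dgka to Rasgrp1 was chosen after the values were seen. It had to separate the groups, since Dgka is lower and Rasgrp1 higher in every GFP-hi library.

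The wider pathway was read from 10 lists of 92 further genes, of which 73 were listed and 61 tested. At an adjusted p under 0.05 none was higher and none lower in GFP-hi (limma), against 3.95% of all genes. At an unadjusted p under 0.05 there were 10 (16.4%, against 20.2% of all genes). Without overlap between the groups, 7 of the 61 were higher and 8 lower in GFP-hi, against 17.1% and 9.84% of all genes. The median log2 fold change of the 61 genes was -0.03, against 0.02 over all genes tested. Array quality weights called 5 higher and 5 lower (16.4%, against 13.7% of all genes with those weights), and any other fit called at most 1.

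Lists were described by the role of their genes. Lipid and receptor-proximal genes came first: all 4 tested phospholipases had values below 0 (median -0.13), led by level by Plcg1, the phospholipase activated by the T-cell receptor, with 42.4 ± 4.52 and 45.7 ± 3.04 RPKM (log2 fold change -0.11, limma adjusted p = 0.55). None of the 4 passed the test. Of 7 tested adaptors, 3 had values above and 4 below 0. The most abundant adaptor, Grap, a relative of Grb2, had 135, 148 and 138 RPKM in GFP-hi and 133, 122 and 128 RPKM in GFP-lo without overlap (log2 fold change 0.13, limma adjusted p = 0.25). Of 7 tested protein kinases that diacylglycerol activates, 5 had values above 0, and the most abundant, Prkch, had 81.6 ± 3.79 and 73.8 ± 3.83 RPKM (log2 fold change 0.14, limma adjusted p = 0.24).

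Ras itself and the cascade below it showed small differences. Of 7 Ras and Rap GTPases, 5 had values above 0 (median 0.04), and the most abundant, Rap1b, was at 0.04 (limma, adjusted p = 0.80). Of 8 Raf, MEK and ERK genes, 5 had values above 0 (median 0.03), and the most abundant, Map2k1, which encodes the ERK kinase MEK1, had 33.1 ± 1.12 and 32.4 ± 1.15 RPKM (log2 fold change 0.03, limma adjusted p = 0.82). The 2 other tested Ras exchange factors and the 3 other tested diacylglycerol kinases all had values below 0, Sos2 at -0.04 (limma, adjusted p = 0.90). Of 5 other Ras GAPs and helpers, 3 had values above 0, and Lztr1, which directs Ras proteins to degradation, was at 0.06 (limma, adjusted p = 0.73). Of 8 tested Rap1 regulators, a list that pools exchange factors and GAPs of Rap1, 7 had values below 0 (median -0.14). The exception among the tested genes was the most abundant, the Rap1 GAP gene Sipa1, at 0.14 (limma, adjusted p = 0.41). Sipa1 passed with array quality weights (0.21, adjusted p = 0.036). Rap1gap2 of that list, picked after its values were seen, was left out of the test by its level. It had 1.16, 0.706 and 0.605 RPKM in GFP-hi and 0.309, 0.295 and 0.421 RPKM in GFP-lo, without overlap. Lack of overlap held for 26.9% of all genes tested.

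Genes known to respond to ERK were read at the transcript level, and whether they follow ERK in these cells was not tested. Of 10 tested, 6 had values above and 4 below 0 (median 0.05). Fos, the most abundant, which also stands on the handling list, had 476, 734 and 513 RPKM in GFP-hi and 566, 778 and 599 RPKM in GFP-lo. Replicate 2 was highest in both groups, as for the heat-shock genes, and the log2 fold change was -0.18 (limma, adjusted p = 0.62). The other genes named from this list were chosen after their values were seen. Ier2, an immediate early gene, had 248, 322 and 245 RPKM in GFP-hi and 310, 394 and 301 RPKM in GFP-lo (log2 fold change -0.30, limma adjusted p = 0.26). It passed with array quality weights (-0.46, adjusted p = 0.024). Egr1, which encodes an early zinc finger factor, had 18.2, 50.5 and 23.5 RPKM in GFP-hi and 23.2, 60.8 and 29.7 RPKM in GFP-lo (log2 fold change -0.31, limma adjusted p = 0.75). Both genes overlapped between the groups and were highest in replicate 2 of each. The list of handling and heat-shock genes, which holds Fos, had 4 of 13 tested genes above and 9 below 0 (median -0.30). Socs3 of that list, picked after its values were seen, passed the threshold (log2 fold change -0.93, limma adjusted p = 0.021). The part of handling in the ERK-responsive genes was not tested. Dusp4, a phosphatase that inactivates ERK, had 1.39, 1.28 and 1.24 RPKM in GFP-hi and 1.07, 1.015 and 0.976 RPKM in GFP-lo (log2 fold change 0.19, limma adjusted p = 0.20). Etv5, an Ets factor gene, was left out of the test by its level, with 0.936, 1.03 and 1.02 RPKM in GFP-hi and 0.674, 0.629 and 0.592 RPKM in GFP-lo. Neither Dusp4 nor Etv5 overlapped between the groups. Dusp4 was the only 1 of the 10 tested genes of this list without overlap, against 17.1% of all genes tested in the higher direction.

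**Figure D4:**
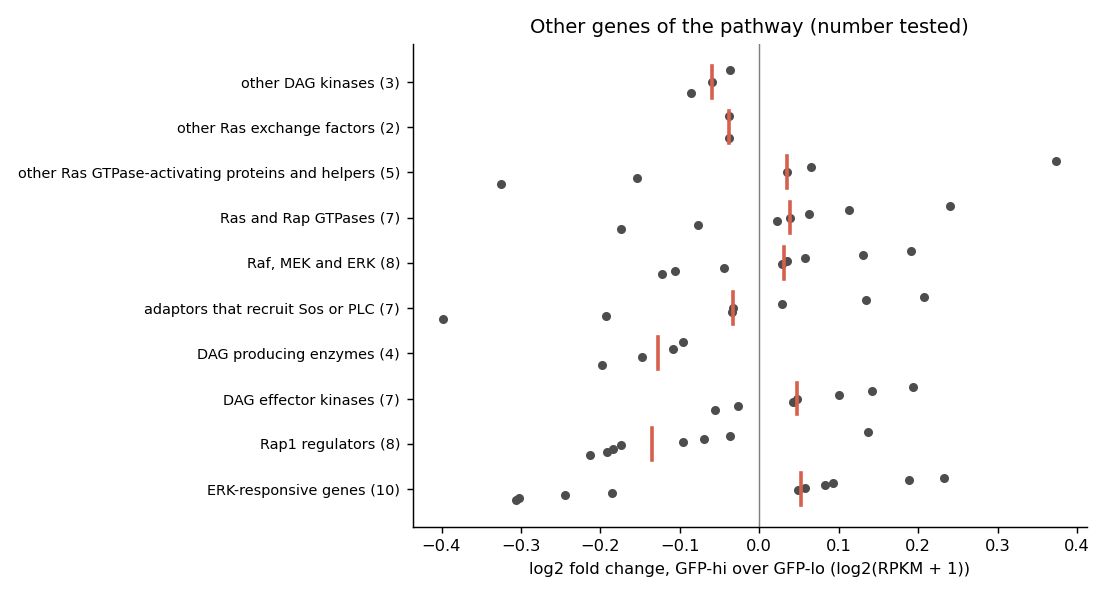
Log2 fold change, GFP-hi over GFP-lo on the log2(RPKM + 1) scale, of the 61 tested genes of the 10 wider pathway lists, 1 point per gene, with the number tested in brackets and the median as a red line. List medians lie between -0.14 and 0.05, and no gene passed an adjusted p of 0.05.

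The 4 genes of these lists with an adjusted p between 0.05 and 0.1 were picked after their values were seen. Rap1a, which encodes a Rap GTPase, had 36.8, 36.9 and 37.0 RPKM in GFP-hi and 29.0, 32.3 and 32.0 RPKM in GFP-lo (log2 fold change 0.24, limma adjusted p = 0.061). Gab3, which encodes a docking adaptor, had 10.1, 13.7 and 10.8 RPKM in GFP-hi and 16.1, 15.2 and 14.9 RPKM in GFP-lo (log2 fold change -0.40, limma adjusted p = 0.075). Prkcb, which encodes a protein kinase C that diacylglycerol activates, had 56.5, 55.6 and 54.7 RPKM in GFP-hi and 49.7, 48.4 and 47.5 RPKM in GFP-lo (log2 fold change 0.19, limma adjusted p = 0.072). None of these genes overlapped between the groups, which held for 26.9% of all genes tested. Rasa4, a Ras GAP gene of low level, had 0.883, 0.833 and 0.694 RPKM in GFP-hi and 1.35, 1.32 and 1.11 RPKM in GFP-lo (log2 fold change -0.32, limma adjusted p = 0.077) and did not overlap either. Gab3 passed the threshold without GFP-hi replicate 2 (-0.52, adjusted p = 0.0081) and in the 4 libraries with lower heat-shock genes (-0.53, adjusted p = 0.042), a subset chosen after the data had been seen. With array quality weights, which called 13.7% of all genes, all 4 genes passed. Their limma adjusted p values were then 0.012 for Rap1a, 0.0030 for Gab3, 0.013 for Prkcb and 0.015 for Rasa4. Rasa4 also passed with eBayes without trend (limma, adjusted p = 0.046). Its mean over all libraries, 1.03 RPKM, was just above the filter of 1 RPKM. Only its GFP-lo mean (1.26 RPKM) exceeded that limit, as the GFP-hi mean was 0.803 RPKM. Rasa4 therefore fell out of the fit when GFP-lo replicate 1 or replicate 2 was removed. With no filter its log2 fold change was -0.32 (limma, adjusted p = 0.089).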

How the data were processed

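RNA of 6 libraries of sorted mouse CD8 T cells, 3 GFP-hi and 3 GFP-lo, was used. Per the labels' protocols, the SMART-seq v4 and Nextera XT kits were used for cDNA and libraries. The values deposited by the authors are RPKM, per the file headers, in 1 column per sample. The submitters' processing notes name STAR and the build mm10. The read counter, annotation, strand setting and the rule for listing genes are not given in the sources used here. Sample titles tied columns to samples, and the reporter label gave the group. For 15 genes without a usable symbol, the Entrez ID was matched to RefSeq names.

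Depth was recovered by seeking the library size at which RPKM times length gave whole reads, for genes with 1 transcript in GENCODE M21. From 88.2% to 91.7% of 252 to 260 low values per library lay no more than 0.1 from a whole read. By chance 20% would do so at a size fixed beforehand, whereas here the size was sought for its agreement. A score of agreement with whole reads was 19.05 to 20.15, against 2.91 to 3.54 when gene lengths were exchanged. Such reads include PCR copies.

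Genes with a mean of at least 1 RPKM (9351, leaving out 1811) were fitted with limma 3.58.1 (R 4.3.3) on log2(RPKM + 1), using lmFit and eBayes with a trend, without covariates. Tests were two-sided, adjusted by Benjamini-Hochberg over all genes tested, with a threshold of 0.05. The fit was tested on simulated data. Gene coordinates come from GENCODE M21 and figures were drawn with matplotlib 3.10.9. Alternatives changed the pseudocount, the filter, the scaling, the variance model or the libraries.

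The 10 genes and the lists were chosen with earlier results of these data known. The text names all 10 genes, Nr4a1, the most abundant gene of each wider list and any gene of those lists with an adjusted p under 0.05, of which there were none. It also names the markers with the highest level. Genes named beyond this rule are marked as chosen after their values were seen, and the reporter transcript was also added then.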

Additional observations from a re-analysis of the deposited data

How the results depend on the processing

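No paired analysis was possible because the labels give no replicate numbers; libraries are numbered in record order. The number of the 9 tested genes that passed was 0, but 2 with array quality weights and 0 to 1 without 1 library. Of all genes, 3.95% passed in the main fit and 13.7% with array quality weights. For the 61 wider pathway genes it was 0, but 10 with array quality weights, 1 with eBayes without trend, 1 in the 4 libraries with lower heat-shock genes, and 0 to 1 without 1 library. Over all genes 369 passed (230 higher and 139 lower in GFP-hi), against 202 with a mean of at least 5 RPKM, 1282 with array quality weights, 90 in the 4 libraries with lower heat-shock genes and 134 to 298 without 1 library. Under trimmed mean of M values scaling, 199 were higher and 183 lower. Activators minus brakes was 0.12, 0.26 by the ratio of summed RPKM and 0.08 to 0.18 without 1 library. The cause of these shifts was not tested.

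Signs of log2 fold changes turned for these named genes. With array quality weights they were -0.013 for Rasa3, 0.11 for Sos2, -0.011 for Rap1b, 0.011 for Plcg1 and -0.42 for Nr4a1. With quantile normalization they were -0.012 for Rasal3 and -0.0042 for Nr4a1, and under trimmed mean of M values scaling -0.0046 for Nr4a1. In the 4 libraries with lower heat-shock genes they were 0.097 for Sos2, -0.035 for Lztr1, -0.015 for Map2k1 and -0.014 for Nr4a1. Without 1 library the ranges were -0.042 to 0.155 for Sos1, -0.042 to 0.088 for Rasa3, -0.17 to 0.072 for Sos2, -0.010 to 0.15 for Lztr1, -0.016 to 0.073 for Rap1b -0.34 to 0.34 for Nr4a1 and -0.72 to 0.088 for Egr1. Differences of the size of that of Rasgrp1 are at the limit here: the smallest absolute log2 fold change of any gene that passed was 0.23.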

Other observations

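Several relatives of the 10 genes were listed at very low levels that varied widely between libraries of the same group. These genes were picked after their values were seen. Rasgrp3, an exchange factor known from B cells, had 0.331, 0.115 and 0.474 RPKM in GFP-hi and 0.113, 0.364 and 0.545 RPKM in GFP-lo libraries. Dgkk had 0.275, 0.037 and 0.34 RPKM in GFP-hi and 0.02, 0.224 and 0.379 RPKM in GFP-lo. Rasgrf1, an exchange factor known from neurons, had 0.207, 0.014 and 0.214 RPKM in GFP-hi and 0.013, 0.068 and 0.287 RPKM in GFP-lo. Rasal2 had 0.225, 0.006 and 0.329 RPKM in GFP-hi and 0.036, 0.149 and 0.527 RPKM in GFP-lo. All 4 genes were lowest in GFP-hi replicate 2 and GFP-lo replicate 1, the libraries in which the median of nasal receptor genes was also lowest (0.037 and 0.038 RPKM). In those libraries Nf1 had 0.22 and 0.199 RPKM, above each of these 4 genes.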
